A study of Mus musculus with 4 samples.

Results

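Among nuclei of sorted mouse alveolar type 2 (AT2) cells, 78 carried RNA of AT2 genes and of genes marking a transitional epithelial state at the same time. They were 41 of 10925 barcodes in the library labelled CKO and 37 of 13569 barcodes in the control library, or 78 of 24494 barcodes in all. A nucleus had to hold 1000 to 25000 unique molecular identifiers (UMIs, each counting 1 captured RNA molecule), at least 300 genes and a mitochondrial share under 20%. Of these 8633 nuclei, it was kept when Sftpb, Sftpa1, Sftpd, Slc34a2, Lamp3, Abca3, Cxcl15 and Lpcat1 together made up at least 1% of its non-mitochondrial UMIs and when Abcb1b, Atg9b, Dscaml1, Anks1b, Tshr and Eda2r together reached at least 3 UMIs. Nuclei with any UMI of Cxcl1 or of Ptprc, the leukocyte antigen CD45, were left out. The nuclei are called double-positive here. They were chosen by the measured RNA of those 14 genes, so the values of these genes are given only as a description.

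The CKO mice carried SftpcCreERT2, Rosa26mTmG and floxed alleles of IP (IPF/F), the prostaglandin I2 receptor encoded by Ptgir, and the control mice carried SftpcCreERT2 and Rosa26mTmG without the floxed alleles. Both groups were male, received bleomycin, a drug that injures the lung, and were sampled at day 8, and both carried the tamoxifen-dependent Cre at the Sftpc locus and the membrane reporter that turns green after recombination. The sort by GFP therefore follows cells that once expressed Sftpc, whatever they express later, and recombination of the reporter does not show that the IP alleles recombined in the same nucleus. Each genotype was 1 multiome library, with RNA and accessible chromatin read from the same nuclei, so differences between genotypes have no replicate check, no p-value is given, and "CKO nuclei" means nuclei of the library labelled CKO; how many mice each library held is not given in the sources used here.

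AT2 cells make pulmonary surfactant, store it in lamellar bodies and serve as progenitors of the flat alveolar type 1 (AT1) cells that exchange gas. After injury they pass through transitional states, described in mouse lung by keratin 8, p53 target genes and loss of surfactant gene expression, before they become AT1 cells. The p53 protein activates genes of cell cycle arrest, DNA repair and death, and JUN pairs with FOS or ATF proteins to form the AP-1 transcription factors that respond to stress and growth signals.

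Of the genes that chose the nuclei, Sftpb encodes surfactant protein B, Lamp3 a lamellar body membrane protein, Abcb1b an efflux pump of the P-glycoprotein family, and Eda2r a TNF receptor family member that p53 activates. Their promoter windows are shown because the chromatin near these genes was measured in the same nuclei and did not choose them. Each window runs from 250 bases before to 50 after the RefSeq start site on GRCm38.p6, 5′ to 3′ on the gene's own strand. Abcb1b lies on the plus strand at chr5:8797897-8798196, Eda2r on the minus strand at chrX:97377160-97377459, Sftpb on the plus strand at chr6:72304360-72304659 and Lamp3 on the minus strand at chr16:19706316-19706615.
Abcb1b: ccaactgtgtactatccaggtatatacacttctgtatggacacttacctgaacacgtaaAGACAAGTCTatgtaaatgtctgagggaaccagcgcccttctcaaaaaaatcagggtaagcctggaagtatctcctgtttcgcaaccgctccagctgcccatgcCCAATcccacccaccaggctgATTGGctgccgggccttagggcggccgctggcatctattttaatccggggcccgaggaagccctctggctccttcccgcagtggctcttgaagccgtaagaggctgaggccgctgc
Eda2r: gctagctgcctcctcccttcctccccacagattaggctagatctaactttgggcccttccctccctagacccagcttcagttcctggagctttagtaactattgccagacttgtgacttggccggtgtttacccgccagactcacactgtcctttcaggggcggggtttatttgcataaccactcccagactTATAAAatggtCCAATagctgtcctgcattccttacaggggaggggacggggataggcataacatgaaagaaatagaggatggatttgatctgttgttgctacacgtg
Sftpb: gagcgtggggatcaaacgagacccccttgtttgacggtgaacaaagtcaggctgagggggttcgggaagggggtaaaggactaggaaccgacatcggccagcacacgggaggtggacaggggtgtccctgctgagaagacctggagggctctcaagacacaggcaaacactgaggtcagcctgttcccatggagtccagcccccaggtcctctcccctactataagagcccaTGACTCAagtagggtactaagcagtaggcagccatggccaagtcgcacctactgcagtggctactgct
Lamp3: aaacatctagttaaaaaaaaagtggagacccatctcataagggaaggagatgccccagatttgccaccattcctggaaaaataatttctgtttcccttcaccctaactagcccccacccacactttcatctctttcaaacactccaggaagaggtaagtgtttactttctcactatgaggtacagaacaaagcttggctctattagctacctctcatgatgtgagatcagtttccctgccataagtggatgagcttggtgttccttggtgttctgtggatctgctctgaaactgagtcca
The capitals mark every match to any of 4 motifs, searched on both strands, and no match overlapped another. The AP-1 motif was written as TGANTCA, the TATA box as TATAAA and the third motif as CCAAT, and the p53 half-site followed its consensus. Abcb1b held 1 p53 half-site match beginning 191 bases before the start site and 2 matches to the CCAAT motif, 1 of them on the other strand. Eda2r held a TATA box and 1 CCAAT match, Sftpb held 1 AP-1 match beginning 18 bases before the start site, and Lamp3 held no match to the 4 motifs. Among all 32851 RefSeq windows of this length, 7.81% held the AP-1 motif, 13.6% the TATA box, 37.4% the CCAAT motif and 8.36% the p53 half-site. A match describes letters in the window and is not a binding site.

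Ptgir, the gene targeted in CKO mice, had 0 UMIs in the double-positive nuclei of either library, and over all filtered nuclei it had 8 UMIs in the library labelled CKO and 1 in the control library, and since the counts do not say which exons the UMIs came from, this level did not check the genotype labels. The 2 libraries shared 193 barcodes, of which 0 were double-positive. Double-positive nuclei were deeper than the others, with a median of 4561 UMIs in CKO and 7893 in control, against 2882 and 2710 in AT2-only nuclei (AT2 criterion met, 0 to 2 transitional UMIs) and 3999 and 4056 in transitional-only nuclei (AT2 sum under 1%, at least 3 transitional UMIs). Their median mitochondrial share was 13.8% in CKO and 14.6% in control, under the limit of 20%. The doublet caller Scrublet marked 4 of 5101 filtered nuclei in CKO and 0 of 3532 in control, too few for it to have worked, and doublets were therefore not removed. The median doublet score was 0.164 in CKO double-positive nuclei, against 0.0921 in both AT2-only and transitional-only CKO nuclei. In control it was 0.121, against 0.11 and 0.115. Whether a double-positive barcode held 1 nucleus or 2 was not tested.

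Most double-positive nuclei sat just above the transitional threshold. The transitional sum was 3 to 10 UMIs, with a median of 4, in the 41 CKO nuclei and 3 to 133 UMIs, with a median of 4, in the 37 control nuclei. It was 3 or 4 UMIs in 30 CKO and 19 control nuclei. Just outside, 51 CKO and 17 control nuclei met the AT2 criterion with exactly 2 transitional UMIs. The AT2 share was 1.3% at the median in CKO and 1.26% in control, and it reached 2% in 6 CKO and 4 control nuclei. At that boundary, 7 CKO and 8 control nuclei lay between 1% and 1.1%, and 11 and 11 nuclei with enough transitional UMIs lay just outside, between 0.9% and 1%. All 8 AT2 genes were detected in 26 CKO and 28 control nuclei, whereas 10 CKO and 16 control nuclei rested on 1 transitional gene alone and 21 CKO and 11 control nuclei on 2 genes.

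**Figure D1:**
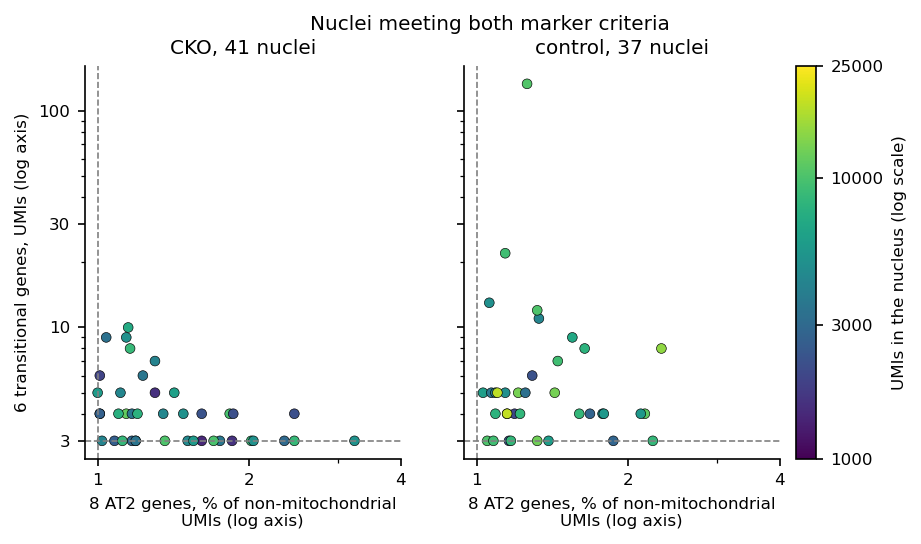
AT2 gene share (x axis, % of non-mitochondrial UMIs, log axis) against transitional UMIs (y axis, log axis) of each double-positive nucleus, CKO left and control right, coloured by depth, with the thresholds as dashed lines. Most points lie at 3 or 4 transitional UMIs, and 1 control nucleus stands at 133.

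Anks1b and Tshr were the transitional genes seen in most nuclei. Anks1b, a scaffold protein gene, had a UMI in 24 of 41 CKO and 22 of 37 control nuclei, and Tshr, the thyrotropin receptor, in 22 and 23. Dscaml1, a cell adhesion gene, was seen in 16 CKO and 6 control nuclei, Abcb1b in 11 and 8, and Eda2r in 11 and 8. Atg9b, of the autophagy scramblase family, was seen in only 2 CKO and 3 control nuclei, with 3 UMIs in each library, so this given marker hardly described the nuclei. Reads of Abcb1b may be shared with its close paralog Abcb1a, and Atg9b overlaps the neighbouring Nos3, so both assignments are uncertain. For comparison, in nuclei with at least 2 Ptprc UMIs and an AT2 share under 1%, which should lack these genes' epithelial expression, Anks1b had a UMI in 5.8% of CKO and 5.15% of control nuclei and Tshr in 4.22% and 4.12%, at median depths of 2364 and 1722 UMIs. Abcb1b was seen more often there, in 12% of the Ptprc-positive CKO nuclei and 14.4% of the control ones. Dscaml1, Eda2r and Atg9b had a UMI in 4.22%, 4.62% and 3.03% of them in CKO and in 1.03%, 2.06% and 0% in control. Without Anks1b in the sum, 24 CKO and 25 control nuclei would still have met the rule.

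The AT2 genes that chose the nuclei were near the AT2-only level. Sftpb stood at 5137 CPM (UMIs of the gene scaled to a fixed total of non-mitochondrial UMIs of the whole set, not by gene length) in CKO and 4397 CPM in control double-positive nuclei, against 5777 and 4410 CPM in AT2-only nuclei and 1076 and 1142 CPM in transitional-only nuclei. Lamp3 stood at 1148 CPM in CKO and 1414 CPM in control, against 1596 and 1349 CPM in AT2-only nuclei. Sftpb reached 970 CPM in CKO and 1396 CPM in control in the Ptprc-positive nuclei, levels near those of transitional-only nuclei; how much of it was free RNA was not tested. Tshr stood at 239 CPM in CKO and 294 CPM in control double-positive nuclei, against 214 and 241 CPM in transitional-only nuclei. Abcb1b was at 114 and 53.9 CPM, against 316 and 170 CPM in transitional-only nuclei, and Eda2r was at 76.2 and 53.9 CPM, against 150 and 136 CPM. In the Ptprc-positive nuclei Abcb1b was at 69.1 CPM in CKO and 61.7 CPM in control, in control above the double-positive level. Tshr was at 25.4 and 44.1 CPM and Eda2r at 22.6 and 5.88 CPM in those nuclei.

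A single control nucleus with 10370 UMIs stood apart from the other 36. It held 132 of the 212 Anks1b UMIs and 315 of the 330 Nrg1 UMIs of the control double-positive nuclei. Nrg1 encodes neuregulin 1, a ligand of ERBB receptors. In that nucleus Nrg1 reached 34946 CPM, against 64.6 CPM in the other 36 together, and Anks1b reached 14644 CPM, against 345 CPM. Bmp1, a procollagen-cleaving protease, stood at 5325 CPM there against 1004 CPM in the others. Of the CKO nuclei, the one with the most transitional UMIs held 18 of 29 Kcnip4 UMIs but no comparable excess of Nrg1, with 10 of 42 UMIs.

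Double-positive nuclei were a small share of the nuclei with AT2 RNA, and the share was lower in the library labelled CKO. It was 2.35% of the 1746 nuclei meeting the AT2 criterion in CKO (exact Clopper-Pearson 95% interval 1.69% to 3.17%) and 5.12% of 722 in control (3.63% to 6.99%). These and all other intervals cover counting error only and say nothing of variation between mice. Over the nuclei meeting the transitional criterion, the share was 10.7% of 384 in CKO (7.77% to 14.2%) and 12.7% of 292 in control (9.08% to 17%), intervals that overlapped. Before nuclei with Cxcl1 or Ptprc were left out, 50 CKO and 45 control nuclei met both criteria. Of these, 1 CKO and 8 control nuclei had Cxcl1 and 9 CKO and 1 control nuclei had Ptprc.

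The share was higher in deeper nuclei, where a fixed number of UMIs is a smaller part of the total. Among nuclei with 1000 to 1999 UMIs it was 0.837% in CKO and 0.38% in control. It was 1.67% and 3.52% at 2000 to 3999 UMIs, 3.48% and 6.56% at 4000 to 7999 UMIs, and 13.3% and 22.1% at 8000 to 25000 UMIs. The intervals of the libraries overlapped in each of these 4 ranges. With each nucleus thinned to 1000 UMIs the share was 0.471% in CKO and 0.666% in control, and thinned to 2000 UMIs it was 1.13% and 2.3%. Without the mitochondrial limit it was 2.03% in CKO and 2.23% in control, so the gap between the libraries was narrower without that filter.

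**Figure D2:**
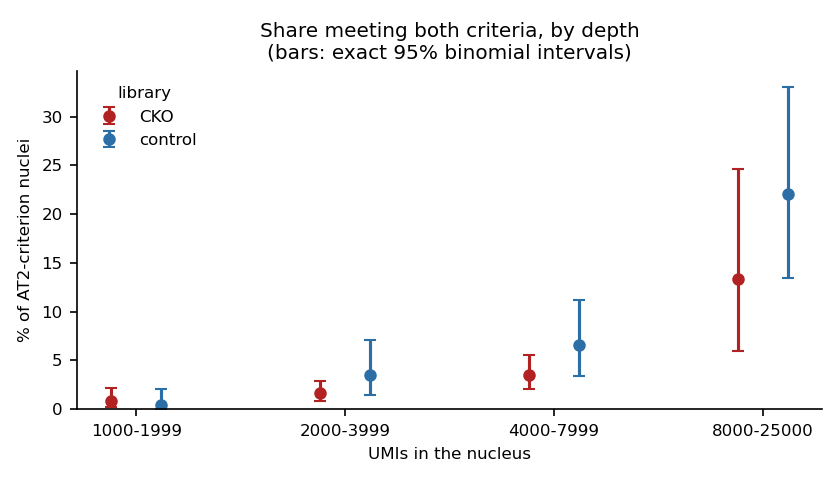
Percentage of nuclei meeting the AT2 criterion that also met the transitional criterion (y axis) in 4 ranges of depth (x axis, UMIs), for CKO (red) and control (blue), with exact 95% binomial intervals. The share is highest at 8000 to 25000 UMIs, 13.3% in CKO and 22.1% in control.

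AT2 genes that took no part in the choice lay somewhat below their AT2-only level in the double-positive nuclei. Of 19 such genes, 3 were above the AT2-only nuclei in CKO and 5 in control, with a median log2 ratio of -0.36 in CKO and -0.22 in control. Over all genes with at least 20 UMIs in the 2 sets together, 49.8% were above AT2-only in CKO and 51.4% in control, with medians of -0.0038 and 0.017. A 2-fold excess was reached by 9.34% of all genes in CKO and 6.13% in control and by 0 of the 19, and a 2-fold deficit by 15.2% and 11.1% of all genes and by 1 of the 19 in each library. Sftpc, whose promoter drives the Cre, stood at 125 CPM in CKO and 99.5 CPM in control, against 187 and 151 CPM in AT2-only nuclei, a log2 ratio of -0.58 (95% interval -1.25 to 0.013) and -0.60 (-1.27 to -0.0051). Etv5, an FGF-responsive transcription factor of AT2 cells, was at 501 and 572 CPM against 640 and 646 CPM. Nkx2-1, the lung lineage transcription factor, was at 408 and 286 CPM against 413 and 315 CPM, with both intervals holding 0. Hc, encoding complement C5, was lowest of the list in CKO, at 245 CPM against 785 CPM (-1.68, -2.14 to -1.26), and closer in control, at 983 against 1308 CPM (-0.41, -0.61 to -0.22).

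Set against the transitional-only nuclei, the same list was higher. All 19 measured genes in CKO and all 18 in control were above the transitional-only level, with medians of 1.70 and 1.38, where 38.2% and 39.9% of all genes were above and the all-gene medians were -0.22 and -0.17. A 2-fold excess was reached by 17 of 19 and 14 of 18, against 5.26% and 5.2% of all genes. Lyz2, encoding lysozyme, stood at 1638 CPM in CKO and 2227 CPM in control, against 346 and 568 CPM in transitional-only nuclei. Napsa, the protease that processes surfactant proteins, stood at 316 and 643 CPM against 89.8 and 176 CPM. Sftpc was at 125 and 99.5 CPM against 17 and 44.4 CPM, log2 ratios of 2.88 (1.99 to 3.77) and 1.17 (0.41 to 1.88). Lcn2, lipocalin 2, and Lrg1, a secreted glycoprotein, were among the highest genes outside the AT2 lists, Lcn2 at 854 and 751 CPM against 206 and 169 CPM and Lrg1 at 218 and 224 CPM against 51.6 and 56.7 CPM. Acot7, Epha7, Bmp1, Ptprn2, Lrp2 and Elovl1 completed the 10 genes highest in both libraries, with log2 ratios between 1.47 and 2.45.

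The other transitional genes did not follow the 6 that chose the nuclei in both libraries. In CKO, 18 of 20 were above the AT2-only nuclei, with a median log2 ratio of 0.59, and 7 reached 2-fold, where 49.8% of all genes were above and 9.34% reached 2-fold. In control, 7 of 16 were above, with a median of -0.036, and 2 reached 2-fold, where 51.4% of all genes were above and 6.13% reached 2-fold. The control count above is near the share of all genes. Krt8, the keratin by which the transitional state is known, stood at 256 CPM in CKO and 207 CPM in control, against 279 and 245 CPM in AT2-only nuclei (-0.13, -0.58 to 0.29, and -0.24, -0.69 to 0.18). Its transitional-only level was 408 CPM in CKO and 238 CPM in control. Clu, clusterin, stood at 163 CPM in CKO and 78.8 CPM in control, against 78.2 and 82 CPM in AT2-only nuclei, but 1 nucleus gave 40% of the CKO UMIs. Sox4, a transcription factor of injured epithelium, stood at 103 and 95.4 CPM against 43.3 and 59.7 CPM, with 52.6% and 39.1% of its UMIs from 1 nucleus. Krt7 and Lgals3, encoding keratin 7 and galectin 3, were below the AT2-only level in control, Krt7 at 33.2 against 107 CPM (-1.69, -2.92 to -0.69) and Lgals3 at 91.3 against 153 CPM (-0.74, -1.44 to -0.12). Against transitional-only nuclei, 3 of 20 genes were above in CKO and 2 of 20 in control, with medians of -0.81 and -1.20, where 38.2% and 39.9% of all genes were above. In control, the median over the other transitional genes, against AT2-only nuclei, lay between -0.30 and 0.29 over 15 settings.

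Targets of p53 stood above the AT2-only level in both libraries and below the transitional-only level in both. Of 23 measured targets, Eda2r not among them, 20 were above AT2-only nuclei in CKO and 20 in control, with medians of 0.93 and 0.75, where 49.8% and 51.4% of all genes were above. A 2-fold excess was reached by 9 and 4 of them, against 9.34% and 6.13% of all genes. Over 15 settings, the reported one included, the median lay between 0.65 and 1.09 in CKO and between 0.34 and 0.96 in control. Mdm2, the ubiquitin ligase that restrains p53, stood at 414 CPM in CKO and 328 CPM in control, against 204 and 165 CPM in AT2-only nuclei (1.02, 0.67 to 1.36, and 0.99, 0.62 to 1.34), and it was seen in 25 of 41 and 22 of 37 nuclei. Its transitional-only level was far higher, 1065 and 890 CPM. Ccng1, cyclin G1, stood at 223 and 108 CPM against 131 and 52.4 CPM, and Sesn2, a stress-induced sestrin, at 109 and 74.7 CPM against 43.3 and 37.8 CPM. All 3 of these intervals lay above 0 in both libraries. Cdkn1a, encoding the cell cycle inhibitor p21, stood at 435 CPM in CKO and 282 CPM in control, against 223 and 241 CPM (0.97, 0.62 to 1.29, and 0.23, -0.16 to 0.60), so that only the CKO interval lay above 0. Polk, a DNA polymerase that copies past damage, stood at 310 and 112 CPM against 101 and 73.3 CPM (1.62, 1.20 to 2.01, and 0.61, -0.035 to 1.20). Tnfrsf10b, a death receptor, had the highest ratios, at 54.4 and 29 CPM against 15.9 and 8.2 CPM, from only 10 and 7 UMIs. Trp53, encoding p53 itself, had 10 UMIs in 5 CKO nuclei and 1 UMI in 1 control nucleus. Against transitional-only nuclei, 3 of 23 targets were above in CKO and 5 of 23 in control, with medians of -0.45 and -0.50. Of all genes 38.2% and 39.9% were above, and the all-gene medians were -0.22 and -0.17. By 2-fold, 5 of the 23 targets in each library were lower, near the shares of all genes, 20.1% and 16.1%.

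**Figure D3:**
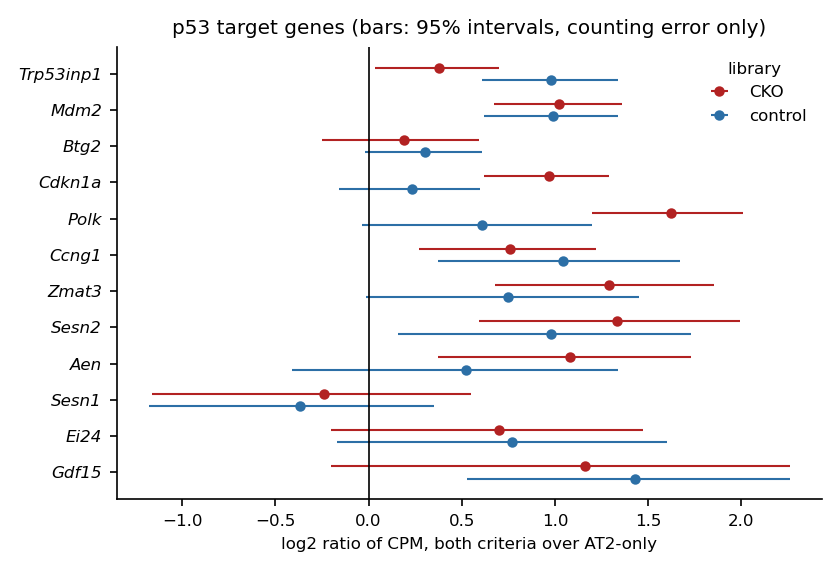
Log2 ratio of CPM, double-positive over AT2-only nuclei (x axis), for the 12 p53 targets with at least 20 UMIs in the double-positive nuclei of both libraries together (y axis), CKO red and control blue, bars 95% intervals. Most points lie right of 0 in both libraries, Mdm2 at 1.02 and 0.99, while Sesn1 lies left of 0 in both.

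AT1 genes had medians near or under the AT2-only level. Of 19 measured in CKO 10 were above, with a median of 0.027, and of 15 in control 4 were above, with a median of -0.23, where 49.8% and 51.4% of all genes were above. Ager, the receptor by which AT1 cells are known, stood at 392 CPM in CKO and 178 CPM in control, against 385 and 288 CPM in AT2-only nuclei. Hopx, a homeodomain gene of AT1 cells, had 9 UMIs in CKO and 3 in control, too few to place. Against transitional-only nuclei 7 of 18 AT1 genes were above in CKO and 1 of 18 in control, with medians of -0.35 and -1.12, where 38.2% and 39.9% of all genes were above and the all-gene medians were -0.22 and -0.17. The CKO count is near the share of all genes. Lmo7 stood at 1709 and 585 CPM against 2783 and 2369 CPM, and Sema3e, a semaphorin, at 92.5 and 16.6 CPM against 346 and 278 CPM (-1.90, -2.69 to -1.21, and -4.07, -5.95 to -2.70).

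Among genes with at least 100 UMIs, those with the clearest excess over AT2-only nuclei in both libraries were Nrg1, Cadm2, Mdm2, Dglucy, Samd12, Hdac9, Drg1, Exoc4, Prkce and Dgkh. Nrg1 stood at 229 CPM in CKO and 1369 CPM in control, against 45.4 and 13.7 CPM in AT2-only nuclei, but 95.5% of the control UMIs came from the nucleus described above. Cadm2, a cell adhesion gene, stood at 136 and 303 CPM against 48.6 and 83.4 CPM (1.49, 0.83 to 2.08, and 1.86, 1.45 to 2.26), with 39.7% of the control UMIs from 1 nucleus. Hdac9, a histone deacetylase, stood at 1012 and 987 CPM against 666 and 567 CPM (0.60, 0.38 to 0.82, and 0.80, 0.59 to 1.00). At the other end were Scgb1a1, Aig1, Osbpl6, Hc, Cd63, Junb, B2m, Mecom, Slc24a4 and Il33. Scgb1a1, the secretoglobin of airway club cells, stood at 294 CPM in CKO and 37.3 CPM in control, against 763 and 182 CPM in AT2-only nuclei and 1078 and 346 CPM in transitional-only nuclei. Il33, an alarmin cytokine made by AT2 cells in mouse lung, stood at 234 and 124 CPM against 348 and 243 CPM. Against transitional-only nuclei the lowest genes were Sorbs2, Scgb1a1, Tnip3, Tspan5, Sema3e, Pvt1, Mdm2, S100a6, Nupr1 and Arhgef28. Tnip3, an NF-kB regulator, stood at 38.1 CPM in CKO and had 0 UMIs in control, which allows up to 12.4 CPM at 3 counts, against 209 and 184 CPM. Pvt1, a long noncoding RNA that p53 activates in mouse cells, stood at 125 and 49.8 CPM against 392 and 307 CPM.

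**Figure D4:**
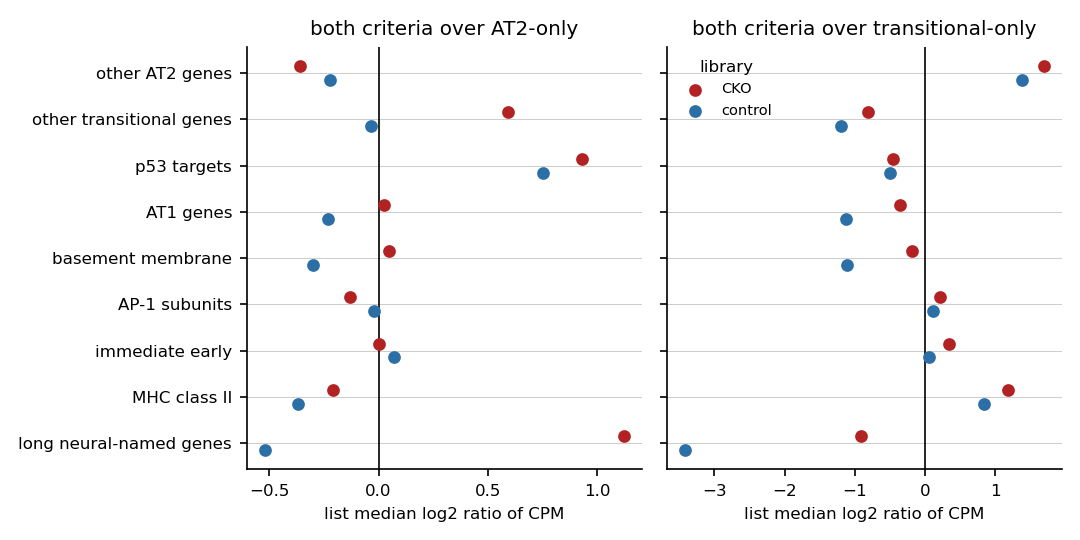
Median log2 ratio of CPM (x axis) over the measured genes of 9 lists (y axis), double-positive over AT2-only nuclei (left) and over transitional-only nuclei (right), CKO red and control blue. The p53 targets lie right of 0 on the left (0.93 and 0.75) and left of 0 on the right (-0.45 and -0.50).

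Between the 2 libraries, double-positive CKO nuclei had less RNA of several stress-responsive transcription factors and more RNA of AT1 and basement membrane genes than control nuclei. The all-gene median of the log2 ratio, CKO over control, was 0.19 over 3776 genes, 61.4% of genes were above 0, and 13% were higher and 5.01% lower by 2-fold. The ratios below are read against that shift. The same ratios in AT2-only and in transitional-only nuclei are given beside most of them, with list medians over the same members in all 3 sets, and the all-gene medians there were 0.41 and 0.37. With such medians most genes were above 0 in those sets. The exact share was not counted, so counts of list members above 0 are not given for those sets.

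Of 8 measured AP-1 subunits, 3 were above 0, with a median of -0.81, against medians over the same 8 of -0.37 in AT2-only and -0.77 in transitional-only nuclei. Jun stood at 457 CPM in CKO and 830 CPM in control double-positive nuclei (-0.86, -1.25 to -0.49). Fosb stood at 495 against 962 CPM (-0.96, -1.32 to -0.60), Junb at 114 against 257 CPM (-1.17, -1.96 to -0.44), and Jund at 381 against 713 CPM (-0.91, -1.33 to -0.50). In AT2-only nuclei the ratios of Jun, Fosb, Junb and Jund were -1.06, -1.07, -1.09 and -0.83, so these 4 were lower in CKO there too. Fos stood at 544 against 460 CPM (0.24, -0.16 to 0.64) and did not go with them. Atf3 stood at 326 against 556 CPM (-0.77, -1.23 to -0.32), where its ratio was 0.084 in AT2-only and -0.80 in transitional-only nuclei. Without the mitochondrial limit the AP-1 median was -0.36.

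Egr1, an immediate early zinc finger gene, stood at 97.9 CPM in CKO against 402 CPM in control (-2.04, -2.85 to -1.30), with ratios of -2.49 in AT2-only and -2.17 in transitional-only nuclei. Nfkbia, the inhibitor of NF-kB that NF-kB itself induces, stood at 49 against 419 CPM (-3.10, -4.27 to -2.11), in 7 CKO and 23 control nuclei, with ratios of -1.47 and -0.71 in the other sets. Sqstm1, an autophagy receptor, stood at 201 against 664 CPM (-1.72, -2.28 to -1.20), with ratios of -1.04 in AT2-only and -0.81 in transitional-only nuclei. Hc stood at 245 against 983 CPM (-2.01, -2.50 to -1.54), with -0.74 and -1.76 there. Nrg1 and Anks1b were also among the lowest, at -2.58 and -1.66, but with the nucleus of most transitional UMIs left out of each library Nrg1 reversed to 1.48 and Anks1b was -0.38 (-0.94 to 0.15). March3, a ubiquitin ligase, Ifrd1, Cdk8 and Cmss1 completed the 10 lowest. Cdk8 stood at 898 against 2816 CPM and Cmss1 at 3140 against 8959 CPM. In AT2-only nuclei the ratios of March3, Ifrd1, Cdk8 and Cmss1 were -1.04, -1.01, -1.45 and -1.75, and in transitional-only nuclei -0.55, -0.82, -1.29 and -1.53, so these 4 were lower in CKO there too. The ribosomal RNA-like gene model Gm42418 took 5.99% of the summed non-mitochondrial UMIs in CKO and 11.2% in control double-positive nuclei. With it and the gene model AY036118 left out of the total, the all-gene median of CKO over control was 0.095 instead of 0.19. The AP-1 median was then -0.91 instead of -0.81.

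Genes higher in CKO were Actb, Rps29, Rpl38, Rpl35a, Tns1, Lmo7, Ctsh, Rpl37a, Tpt1 and Zbtb16. Actb, beta-actin, stood at 1186 CPM in CKO and 324 CPM in control (1.87, 1.50 to 2.27), and the 4 genes of ribosomal proteins among them had ratios up to 2.09. The ratios of these 5 genes lay between 0.90 and 2.16 in the other 2 sets. Ctsh, cathepsin H of lamellar bodies, stood at 1409 against 494 CPM (1.51, 1.20 to 1.84), with 1.46 in AT2-only and 0.68 in transitional-only nuclei. Of 12 measured AT1 genes 11 were above 0, with a median of 1.23, against 0.84 in AT2-only and 0.31 in transitional-only nuclei. Cldn18, a tight junction claudin, stood at 446 against 145 CPM (1.62, 1.03 to 2.23), with 0.87 and 0.60 in these sets. Timp3, an inhibitor of metalloproteinases, was the exception at 305 against 771 CPM (-1.34, -1.80 to -0.90), with 0.064 in AT2-only and -1.12 in transitional-only nuclei. Of 9 basement membrane genes 7 were above 0, with a median of 0.91, against 0.56 in AT2-only and 0.24 in transitional-only nuclei. Col4a3, a collagen IV chain that with Col4a4 is also in the AT1 list, stood at 452 against 153 CPM (1.56, 0.98 to 2.16), with 0.53 and -0.38 in these sets. Over 15 settings the double-positive AT1 median lay between 0.63 and 1.46, lowest with no mitochondrial limit, where the all-gene median was 0.28. The basement membrane median lay between 0.23 and 1.01, lowest at 2000 to 8000 UMIs, where the all-gene median was 0.064.

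**Figure D5:**
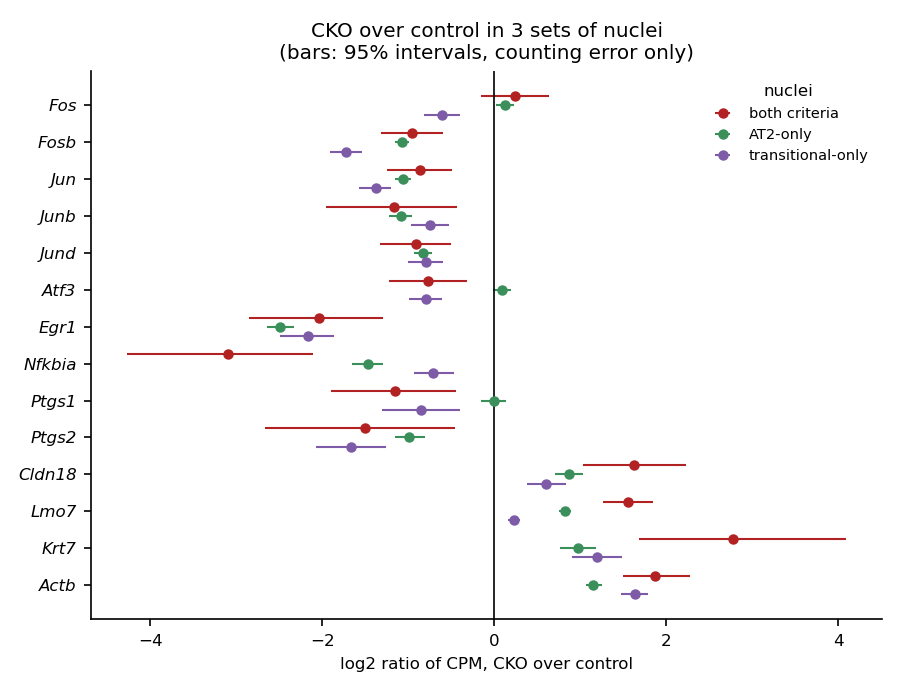
Log2 ratio of CPM, CKO over control (x axis), of 14 genes (y axis, chosen after their values were seen) in double-positive (red), AT2-only (green) and transitional-only (purple) nuclei, bars 95% intervals. Jun, Junb, Jund, Fosb and Egr1 lie left of 0 and Actb, Cldn18, Lmo7 and Krt7 right of 0 in all 3 sets. In transitional-only nuclei Lmo7, at 0.23, lies below the all-gene median of 0.37.

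Medians of the p53 targets and of the other transitional genes were above the all-gene median in CKO double-positive nuclei. Of 12 measured p53 targets 10 were above 0, with a median of 0.50, against 0.32 in AT2-only and 0.57 in transitional-only nuclei. A 2-fold excess was reached by 2 of the 12. Polk, at 310 CPM in CKO against 112 CPM in control (1.47, 0.79 to 2.19), and Ccng1, at 223 against 108 CPM (1.05, 0.31 to 1.82), led the list, and Gdf15, a secreted stress factor, was at its low end, at 38.1 against 66.4 CPM (-0.80, -2.32 to 0.56). Polk, Ccng1 and Gdf15 had 0.46, 1.33 and -0.53 in AT2-only and 0.56, 0.94 and -0.91 in transitional-only nuclei. Cdkn1a and Mdm2 had ratios of 0.63 (0.14 to 1.11) and 0.34 (-0.14 to 0.81), against -0.11 and 0.30 in AT2-only and 0.42 and 0.26 in transitional-only nuclei. The list of other transitional genes shares Cdkn1a and Gdf15 with the p53 targets. Of 13 measured, 10 were above 0, with a median of 0.65, against 0.11 in AT2-only and 0.26 in transitional-only nuclei. Krt7 stood at 229 against 33.2 CPM (2.78, 1.68 to 4.09), and Itgb6, the integrin subunit that activates TGF-beta, at 141 against 33.2 CPM (2.09, 0.91 to 3.45). Krt8 differed by 0.30 (-0.30 to 0.91). Krt7, Itgb6 and Krt8 had 0.97, 1.31 and 0.19 in AT2-only and 1.19, 0.26 and 0.78 in transitional-only nuclei. Read against the all-gene medians of 0.41 and 0.37, only Krt7 was higher in both sets. Krt8 in AT2-only and Itgb6 in transitional-only nuclei lay below them.

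Genes of the prostaglandin pathway were sparse in these nuclei. Of 20 listed, 5 had at least 20 UMIs, and 1 of the 5 was above 0, with a median of -0.99. Medians over the same 5 were -0.19 in AT2-only and -0.52 in transitional-only nuclei. Over 15 settings the double-positive median lay between -1.20 and -0.089, the latter at 2000 to 8000 UMIs, so its size depended on the setting. Summed over the 20 genes, the ratio was -0.42 (-0.73 to -0.11). Ptgs1 and Ptgs2 encode the cyclooxygenases that begin prostaglandin synthesis. Ptgs1 stood at 125 CPM in CKO and 278 CPM in control (-1.15, -1.90 to -0.45), and Ptgs2 at 54.4 against 153 CPM (-1.50, -2.67 to -0.46), with 60% of its CKO UMIs from 1 nucleus. Slco2a1, the prostaglandin uptake transporter, differed by -0.08 (-0.67 to 0.50). Ptgs1, Ptgs2 and Slco2a1 had -0.01, -0.99 and -0.19 in AT2-only and -0.85, -1.67 and -0.35 in transitional-only nuclei.

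Chromatin, which took no part in choosing the nuclei, was compared within each library because peaks were called per library. Peak counts within 25 kb of the 8 choosing AT2 genes were 0.0915% of all peak counts in CKO and 0.0993% in control double-positive nuclei, against 0.0917% and 0.0922% in AT2-only and 0.0543% and 0.0627% in transitional-only nuclei. The log2 ratio to AT2-only nuclei was -0.0025 (-0.26 to 0.25) in CKO and 0.11 (-0.25 to 0.45) in control, and that to transitional-only nuclei was 0.75 (0.47 to 1.03) and 0.66 (0.28 to 1.02). The first pair of intervals held 0 and the second pair did not. Near these 8 genes a difference from AT2-only nuclei was not detectable at this depth. The excess over transitional-only nuclei was smaller under some settings, 0.38 within 5 kb and 0.40 within 100 kb in CKO, and 0.14 in control at 2000 to 8000 UMIs, where the control ratio to AT2-only was -0.54. Near the AT2 genes that took no part in the choice, the ratio to AT2-only nuclei was -0.042 (-0.20 to 0.11) in CKO and -0.32 (-0.57 to -0.075) in control, and that to transitional-only nuclei was 0.28 (0.11 to 0.44) and -0.12 (-0.39 to 0.13). By these intervals the double-positive nuclei were above the transitional-only level in CKO, and in control, from 140 counts, below the AT2-only level. The chromatin intervals treat each count as separate, although 2 counts can come from 1 fragment, so they may be too narrow. This list was not rerun under the other settings.

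Near the 6 choosing transitional genes the counts were too few to place the nuclei. The share was 0.0317% in CKO and 0.0354% in control, from 45 and 26 counts, against 0.0299% and 0.0334% in AT2-only and 0.0407% and 0.0412% in transitional-only nuclei. The ratios to AT2-only were 0.083 (-0.38 to 0.51) and 0.082 (-0.54 to 0.65), and those to transitional-only nuclei were -0.36 (-0.84 to 0.086) and -0.22 (-0.86 to 0.36), so each of these intervals held 0. Transitional-only nuclei themselves stood above AT2-only nuclei by 0.44 (0.28 to 0.60) and 0.30 (0.092 to 0.51). With each nucleus weighted equally, the ratios to AT2-only nuclei were -0.57 in CKO and -1.13 in control. Near Abcb1b, the promoter region shown above included, the ratio to AT2-only nuclei was 1.69 (0.20 to 2.88) in CKO and 1.66 (0.15 to 2.89) in control, but it rested on 6 counts from 3 nuclei and 6 counts from 2 nuclei, and 2 counts can come from the ends of 1 fragment. Eda2r had 2 counts in 1 CKO nucleus and 0 in control, and Anks1b, despite its RNA, 0 in control. Near p53 targets the ratio to AT2-only was -0.19 (-0.35 to -0.027) in CKO and -0.016 (-0.23 to 0.19) in control, and near AT1 genes it was 0.22 (0.03 to 0.40) and 0.30 (0.05 to 0.54). Median peak counts were 2190 in CKO and 632 in control, and 16 CKO and 22 control nuclei had fewer than 1000.

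Markers of other cell types were sparse in the double-positive nuclei. The 11 macrophage genes summed to 9 UMIs in CKO and 3 in control, or 49 and 12.4 CPM, against 85.4 and 28.7 CPM in AT2-only nuclei, with Marco, Siglecf and C1qb at 0 in both libraries. Neutrophil genes summed to 6 UMIs in CKO and 0 in control, T and NK cell genes to 5 and 2, B cell genes to 3 and 3, endothelial genes to 4 and 4, fibroblast genes to 1 and 0, ciliated cell genes to 5 and 2, basal cell genes to 2 and 1, and mesothelial genes to 3 and 0. Cd3e, Cd3g, Ms4a1, Pax5, Cdh5, Kdr, Ptprb, Foxj1, Krt5, Krt14, Upk3b and Wt1 were at 0 in both libraries. Club cell genes summed to 61 UMIs in CKO and 9 in control, or 332 and 37.3 CPM, nearly all of it Scgb1a1. The AT2-only sums were 830 and 191 CPM. In CKO the T and NK cell, B cell, basal and mesothelial sums were above the AT2-only sums. They stood at 27.2, 16.3, 10.9 and 16.3 CPM, against 14.3, 11.2, 2.15 and 5.68 CPM, and each interval held 0. The neutrophil, endothelial, fibroblast and ciliated sums were below there. In control the B cell and basal sums were above, at 12.4 and 4.15 against 5.92 and 1.82 CPM, and no other was. Nuclei with a Ptprc UMI were left out, so the choice partly set the low leukocyte sums. The part of these cells in the results above was not tested.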

How the data were processed

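Nuclear RNA and accessible chromatin of GFP-sorted lung cells were measured in 2 multiome libraries, 1 per genotype. The deposited matrices hold whole-number counts, UMIs per gene and transposition counts per peak, with peaks called separately in each library. The authors used Cell Ranger ARC 2.0.1, Seurat 4.1.0 and Signac 1.6.0, per the submitters' processing notes, which name GRCm39 and GRCm38; gene coordinates in the deposited files matched GRCm38. Strand handling is not given in the sources used here.

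UMIs were summed over the nuclei of a set within a library and divided by the set's non-mitochondrial UMIs (CPM). Summed UMIs were 183774 in CKO and 241091 in control double-positive nuclei, and 3 UMIs correspond to 16.3 and 12.4 CPM. Ratios of CPM are on the log2 scale with no pseudocount, with exact 95% conditional binomial intervals, and shares have Clopper-Pearson intervals. Both were run on simulated counts drawn independently, without variation between nuclei, which is what the intervals assume. That run cannot show whether the intervals are wide enough where 1 nucleus gives many of a gene's UMIs. A gene or list member counts as measured with at least 20 UMIs in the 2 sets compared together. With 1 library per genotype no test was made. Named genes are the 14 of the rule, a few always given, the 10 highest and lowest of each comparison with at least 100 UMIs by the interval bound nearest 0 (gene models without a name left out), and the extremes of each list; others were chosen after their values were seen. The members and lists were chosen with earlier results of these data known. Of 24 alternatives, 4 were added after seeing the data. Scrublet ran in scanpy 1.11.5. Promoter windows are RefSeq's.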

Additional observations from a re-analysis of the deposited data

Results flagged for a closer look

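A list of long genes named for neuronal roles had medians on opposite sides of 0 in the 2 libraries. Its median log2 ratio of double-positive over AT2-only nuclei was 1.12 in CKO, where 10 of 13 measured genes were above 0. In control it was -0.52, where 3 of 8 were above 0. Of all genes 49.8% were above 0 in CKO and 51.4% in control. The 2 medians rest on different numbers of members. Summed over all 14 listed genes, the ratio was 1.53 (1.26 to 1.79) in CKO and -0.079 (-0.48 to 0.30) in control, an interval that held 0. The difference between the libraries was not tested, since each is 1 sample. In CKO, Dlg2 owed 79.3% of its 29 UMIs and Cntnap2 61.5% of its 13 UMIs to 1 nucleus, whereas Gria3, a glutamate receptor subunit gene, had 16 UMIs in 8 nuclei. In control, Gria3 had 10 UMIs in 4 nuclei. Over the settings tried the median lay between 0.33 and 1.84 in CKO and between -1.30 and 0.18 in control.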

How the results depend on the processing

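No paired analysis was possible because each genotype was 1 library. The share of AT2-criterion nuclei that were double-positive, 2.35% in CKO and 5.12% in control, had CKO below control under the settings listed here but moved in size, and among nuclei with 1000 to 1999 UMIs it was 0.837% in CKO and 0.38% in control. It was 5.27% and 7.48% with at least 2 transitional UMIs, 0.63% and 2.49% with at least 5, 1.23% and 2.84% with a mitochondrial share under 10%, 1.37% and 3.46% with Anks1b not counted, 0.471% and 0.666% thinned to 1000 UMIs, and 1.13% and 2.3% thinned to 2000 UMIs. It was 4.79% in CKO with an AT2 sum of at least 0.5%, 1.39% in CKO with at least 2%, 2.91% in control with at least 2 transitional genes, and 2.23% in control with no mitochondrial limit, under which the AP-1 median of CKO over control was -0.36 instead of -0.81. Over 15 settings the p53 median of CKO over control lay between 0.24 and 0.69. Over AT2-only nuclei, the AT2 median lay between -0.58 and -0.31 in CKO and between -0.36 and -0.14 in control. The transitional median over AT2-only nuclei lay between 0.41 and 0.71 in CKO, but in control it ranged from -0.30 to 0.29. Over transitional-only nuclei, the p53 median lay between -0.63 and -0.33 in CKO and between -1.04 and -0.25 in control. These moves were not compared with the spread of the genes within each list.

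Few named genes with a difference of at least 2-fold turned sign, and sign changes of smaller ratios were not counted. Nrg1 in CKO over control, -2.58, was 1.26 at 2000 to 8000 UMIs, 1.86 with at least 1000 peak counts, 1.48 without the nucleus with most transitional UMIs and 1.07 with Anks1b not counted. Anks1b in control double-positive over transitional-only nuclei, 1.19, was -0.45, -0.29, -0.16 and -0.018 under the same 4 settings. Nrg1 over AT2-only in control, 6.65, was -0.64 with Anks1b not counted. In CKO over control, Abcb1b, 1.08, was -0.11 at 2000 to 8000 UMIs, and Dscaml1, 1.21, was -0.049 with at least 1000 peak counts. Hopx over transitional-only in control, -1.12, was 0.11 with no mitochondrial limit.

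Chromatin near the AT2 genes in CKO was -0.47 over AT2-only and 0.38 over transitional-only within 5 kb, and 0.40 over transitional-only within 100 kb. At 2000 to 8000 UMIs it was -0.54 and 0.14 in control. Near the transitional genes it was 0.40 over transitional-only in control within 100 kb. With each nucleus weighted equally it was -0.57 over AT2-only and -1.07 over transitional-only in CKO, and -1.13 and -1.24 in control. The causes were not tested. Depth limits the chromatin of single genes and all genes under 20 UMIs.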

Other observations

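Genes of antigen presentation stood near or below the AT2-only level and above the transitional-only level. Of the 7 MHC class II genes, all measured, 2 were above the AT2-only level in CKO and 1 in control, with medians of -0.21 and -0.37, where 49.8% and 51.4% of all genes were above. Against transitional-only nuclei 5 of 5 measured genes were above in CKO and 4 of 5 in control, with medians of 1.19 and 0.85, where 38.2% and 39.9% of all genes were above. In CKO over control, 0 of 4 measured genes were above 0 in double-positive nuclei, with a median of -0.69, where 61.4% of all genes were above 0. Over the same 4 genes the median was -0.86 in AT2-only and -0.96 in transitional-only nuclei.

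Genes of YAP and TEAD signalling and of TGF-beta signalling, both linked to AT1 fate, lay below the transitional-only level. Of 11 measured YAP and TEAD genes 1 was above in CKO and of 9 in control 1 was above, with medians of -0.38 and -0.78. Of 11 measured TGF-beta genes 2 were above in CKO and 0 in control, with medians of -0.41 and -0.77. Of all genes 38.2% were above in CKO and 39.9% in control, with medians of -0.22 and -0.17. Against AT2-only nuclei the medians of these lists lay between -0.061 and 0.11.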
